A study of Mus musculus with 3 samples.

Results

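The miR-322, miR-503 and miR-351 cluster is a group of microRNA hairpins that lie close together on the mouse X chromosome, with miR-542 and the 2 copies of miR-450a. Its members were taken by name: all entries for miR-322, miR-503, miR-351, miR-542 and miR-450a, both arms of each hairpin, which gave 11 of the 1908 mature microRNAs counted. Of these 11, 10 had at least 1 read, 6 had 30 reads or more in total and 5 had 100 or more. The small RNA came from livers of C57BL/6J mice, all male and 8 to 10 weeks old, with 1 library for each of 3 groups. Sham mice had a laparotomy without clamping, and the liver was removed after a wait equal to the clamping time. In the WI (warm ischemia) group the vessels and bile duct of the left and median lobes were clamped, and the liver was removed with no return of blood. In the IR (ischemia-reperfusion) group the clamp was released and blood flowed back before the liver was removed. IR livers thus came at a later time after surgery, and reperfusion and time cannot be told apart. How many mice gave RNA to each library is not given in the sources used here.

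A microRNA is cut from a hairpin, and either strand (the 5p or the 3p arm) can be loaded into the silencing complex, where bases 2 to 8, the seed, pair with messenger RNAs. MiR-322-5p is the mouse counterpart of human miR-424 and carries the seed of the miR-15 and miR-16 family, which represses cyclins, cyclin-dependent kinases and other genes of the G1 phase. MiR-503-5p has a closely related seed and acts on overlapping cell-cycle genes. MiR-424 and miR-322 are also known as hypoxia-responsive microRNAs of endothelial cells that repress cullin 2, part of the complex that degrades hypoxia-inducible factors. MiR-351-5p carries the seed of miR-125, and miR-542-3p is known for repressing survivin, an inhibitor of cell death. The comparisons ask how these microRNAs stand when the liver loses its blood supply and when the flow returns.

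The mature sequences show which members could act on the same messages. They are from RefSeq (GRCm38.p6), which held all 11, are written 5′ to 3′ with the seed in capitals, and were matched to the NCBIM37 (mm9) genome. The first set is shown because miR-322-5p shares its seed with miR-16-5p and miR-195a-5p, whereas miR-503-5p differs from miR-322-5p within the seed by A8G (the base of miR-322-5p first, counted from 1 at the 5′ end).
miR-322-5p: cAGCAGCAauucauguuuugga
miR-503-5p: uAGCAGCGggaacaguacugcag
miR-16-5p: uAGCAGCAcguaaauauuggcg
miR-195a-5p: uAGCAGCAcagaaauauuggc

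The second set is shown because miR-351-5p has the seed of both miR-125 microRNAs. Likeness to any listed microRNA was low outside the seed, since the nearest over the whole length differed from miR-351-5p at 11 positions.
miR-351-5p: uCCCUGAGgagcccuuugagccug
miR-125a-5p: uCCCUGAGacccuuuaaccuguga
miR-125b-5p: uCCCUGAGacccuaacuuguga

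The third set holds the other members with 30 reads or more, and miR-450b-5p, which lies in the same locus but is not a member. The seeds of miR-450a-5p and miR-450b-5p differ by G7A and A8G (the base of miR-450a-5p first).
miR-322-3p: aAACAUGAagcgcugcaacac
miR-503-3p: gAGUAUUGuuuccacugccugg
miR-542-3p: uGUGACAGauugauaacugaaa
miR-450a-5p: uUUUGCGAuguguuccuaauau
miR-450b-5p: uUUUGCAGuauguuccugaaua

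All hairpins lie on the minus strand within 6.4 kb, chrX:50401174-50407526 (mm9), and no other annotated gene overlaps them. In the direction of transcription the order is miR-322, miR-503, miR-351, miR-542, both miR-450a copies and miR-450b. The nearest gene upstream, 697 bases away on the same strand, is the long non-coding RNA gene C430049B03Rik. The hairpins of miR-322 (chrX:50407432-50407526), miR-503 (chrX:50407161-50407231) and miR-351 (chrX:50406432-50406530) start within 996 bases of each other, and miR-542 (chrX:50402580-50402664) starts 4862 bases after miR-322. MiR-450a-5p matched the genome at 2 places, 1 in each miR-450a hairpin (chrX:50401476-50401544 and chrX:50401331-50401421), so its reads cannot be assigned to either copy. Each of the other 10 members matched at 1 place only. The listed microRNA nearest to any member was miR-450b-3p, which differed from miR-450a-1-3p at 2 bases, while for members with 30 reads or more the nearest differed at 6 or more.

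Read totals were 3844133 for Sham, 5064014 for WI and 3784539 for IR. Where 3 values stand together below, they are given in this order of the groups. The members took 0.0779%, 0.0755% and 0.0912% of the reads. Levels are given as reads per 1000000 (CPM) after scaling of the library totals, and 1 read was worth 0.253, 0.206 and 0.262 CPM. Intervals are 95% exact intervals unless named otherwise and cover counting error only, since no group has a second library. Every p-value compares 2 libraries and not 2 conditions.

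The hepatocyte microRNA miR-122-5p was abundant, at 15960, 18999 and 15364 CPM, so the marker of the labelled tissue was present. The 3 hepatocyte microRNAs summed to 266266, 283950 and 258895 CPM, lowest in IR. Markers of other cells also differed between the groups. The 7 muscle microRNAs summed to 6.82, 25.1 and 76.6 CPM, nearly all of it miR-133a-3p. The rest of the list was near the floor. MiR-1a-3p had 0, 1 and 6 reads, miR-133b-3p had 0, 2 and 4, and miR-208a-3p was at 0 throughout. MiR-206-3p, miR-208b-3p and miR-499-5p had at most 4 reads in any library. The 3 erythroid microRNAs, all detected, summed to 4926, 4651 and 8824 CPM. The leukocyte list (5 of 5 detected) ranged from 2806 to 3094 CPM, the endothelial list (2 of 2) from 17568 to 22783 and the stromal list (5 of 5) from 35224 to 43072, each sum lowest in IR. Most of the endothelial sum was miR-126a-5p and most of the stromal sum miR-143-3p. MiR-126a-3p (2956, 2951 and 2985 CPM), miR-199a-5p (215, 198 and 217) and miR-214-3p (40.2, 34.7 and 46.5) were highest in IR. The stromal miR-145a-5p and miR-199a-3p were lowest there. Most of the leukocyte sum was miR-142-5p. MiR-223-3p, a neutrophil microRNA, was at 110, 109 and 236 CPM and was called higher in IR than in either other group. The other leukocyte microRNAs were all lower in IR than in WI, and none of them was called. MiR-142-3p was at 110, 152 and 119 CPM, miR-150-5p at 119, 104 and 95.4 and miR-155-5p at 20.2, 16.6 and 14.4. The part of these cells in the results was not tested. In whole liver, fewer cells of a type and less RNA per cell cannot be told apart.

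MiR-351-5p (mmu-miR-351-5p) was the most abundant, with 1679, 2225 and 2126 reads. It ranked 73 among the 851 detected microRNAs by mean level and held 56.1%, 58.2% and 61.6% of all member reads. MiR-322-5p (mmu-miR-322-5p), the strand with the miR-16 seed, followed with 671, 817 and 713 reads (rank 104). MiR-322-3p (mmu-miR-322-3p) had 405, 451 and 402 reads (rank 128). The order of these 3 was the same in every library, and their counting intervals did not overlap.

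MiR-450a-5p (mmu-miR-450a-5p) came next with 140, 199 and 101 reads, and miR-542-3p (mmu-miR-542-3p), the survivin repressor, had 72, 107 and 69. The intervals of these microRNAs were apart in Sham and WI but overlapped in IR, where that of miR-450a-5p began at 21.5 CPM and that of miR-542-3p ended at 22.8. MiR-503-3p had 15, 11 and 27 reads and miR-542-5p had 9, 11 and 8, with overlapping intervals in Sham and WI and separate ones in IR. The other 4 members lay at the limit of the depth. MiR-503-5p (mmu-miR-503-5p), the strand with the cell-cycle seed, had 1, 2 and 2 reads, and miR-351-3p had 1, 0 and 3. MiR-450a-2-3p had 1 read, in WI. MiR-450a-1-3p had none, which is read against a floor of 3 reads, or 0.758, 0.617 and 0.785 CPM, and the upper ends of its exact intervals were 0.932, 0.758 and 0.965 CPM.

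**Figure D1:**
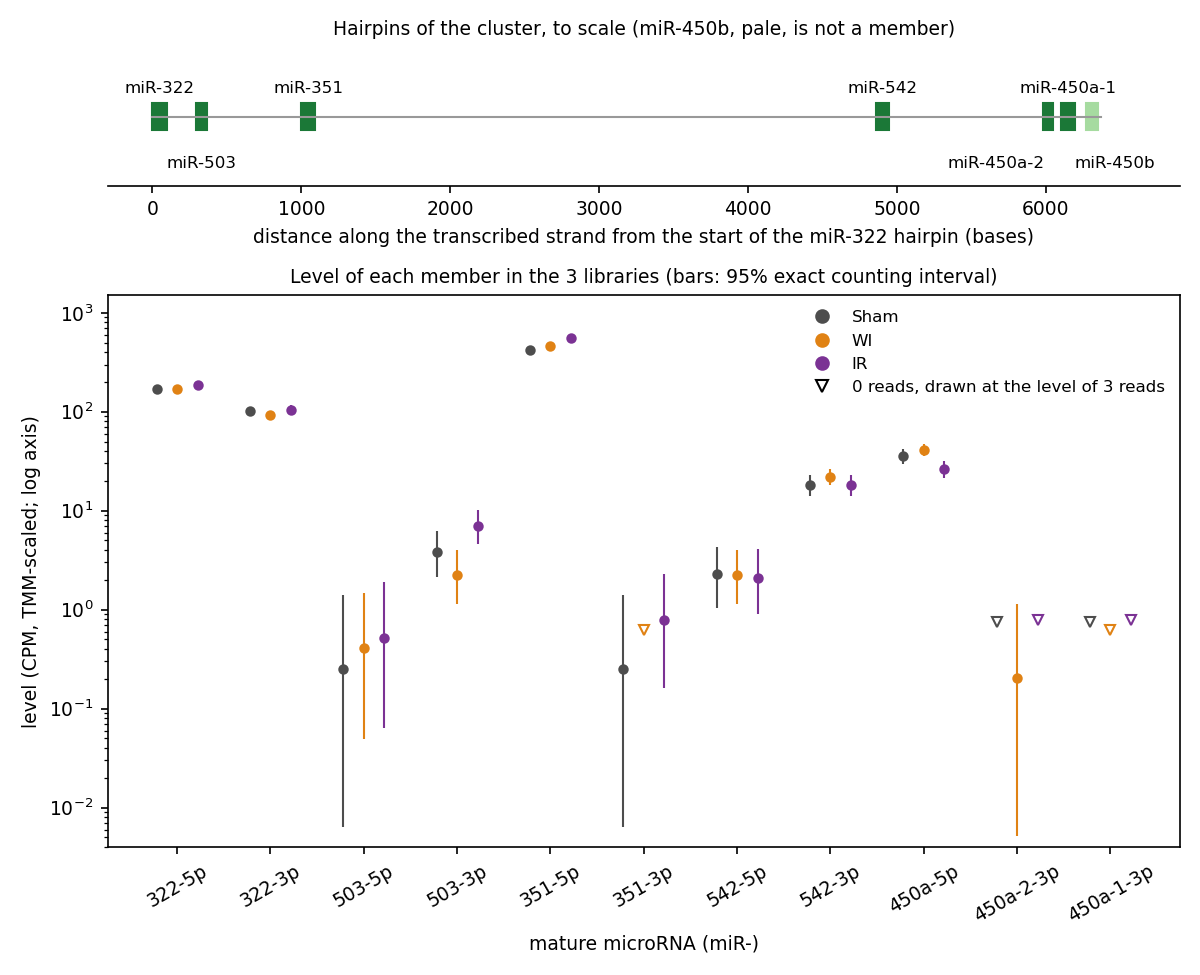
The upper panel maps the hairpins to scale by distance in bases along the transcribed strand, and the lower panel gives the level of each member (CPM, log axis) in the Sham, WI and IR libraries with 95% exact counting intervals, open triangles marking 0 reads at the level of 3 reads. MiR-503, which starts 295 bases after miR-322, had at most 7.06 CPM for either arm, while miR-322-5p and miR-351-5p on either side of it had at least 168.

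The hairpins differed in which arm was kept. MiR-322 kept both. Its 3p arm held 37.6% of the hairpin's reads in Sham (95% Wilson interval 34.8 to 40.6), against 35.6% for WI (33.0 to 38.2) and 36.1% for IR (33.3 to 38.9), and these intervals overlap. A minor arm with so large a share was uncommon. Among hairpins with 10 reads or more, 5.85% of 188 in Sham had a share as high, 6.60% of 197 in WI and 6.19% of 194 in IR, and the median share of the minor arm was 1.60%, 2.17% and 1.67%.

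MiR-351 was read almost wholly from its 5p arm, with 3p shares of 0.0595%, 0% (95% Wilson upper bound 0.172%) and 0.141%. MiR-542 was read mainly from its 3p arm, which held 88.9%, 90.7% and 89.6%, with Wilson intervals that reached from 80.2 to 94.7 over the libraries. In miR-503 the 3p arm also led, with 15 of 16, 11 of 13 and 27 of 29 reads. The miR-503 arm with the seed close to that of miR-16 was therefore the rarer product in every library. For miR-322, miR-351, miR-542 and miR-503, no Wilson intervals of the 3p share were apart between libraries. How often they are apart over all hairpins was not computed. With at most 29 reads of miR-503 in a library, only a large difference could have separated its intervals.

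After ischemia alone (WI versus Sham), none of the 10 members tested was called. A call needed a change above 1.5-fold and a Fisher's exact p under 0.01, the criteria of the study. Of all 782 microRNAs tested, 15 were called (1.92%), 1.41% higher and 0.512% lower. MiR-322-5p, the hypoxia-linked member, stood at 169 CPM in Sham and at 168 in WI. The ratio was 0.991 (0.894 to 1.10), so a difference of 1.5-fold lay outside its counting error. For miR-322-3p the ratio was 0.906 (0.791 to 1.04), and for miR-351-5p it was 1.08 (1.01 to 1.15, Fisher's exact p = 0.0196, Benjamini-Hochberg adjusted p = 0.143). For miR-450a-5p it was 1.16 (0.927 to 1.45). These 4 members had intervals wholly within 1.5-fold, as did 72.8% of the 246 microRNAs with 100 reads or more.

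The remaining members were less well resolved. MiR-542-3p was at 18.2 CPM in Sham and at 22.0 in WI, and the interval of its ratio (0.889 to 1.65) reached past 1.5. MiR-503-3p had 15 and 11 reads, a ratio of 0.597 with an interval from 0.248 to 1.39. Of the 5 members with 30 reads or more, 0 were past 1.5-fold by the ratio alone, where 10.1% of 327 microRNAs were. The median log2 ratio of the 5 was 0.11, against 0.05 for all 327.

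Between ischemia and reperfusion (IR versus WI), 2 of the 10 members tested were called, miR-503-3p higher and miR-450a-5p lower in IR. Over all microRNAs 9.25% were called (73 of 789), 6.21% higher and 3.04% lower. MiR-503-3p, the leading arm of its hairpin in these libraries, rose from 11 reads in WI to 27 in IR. Its level rose from 2.26 to 7.06 CPM, a ratio of 3.12 (1.499 to 6.98, Fisher's exact p = 0.00091, Benjamini-Hochberg adjusted p = 0.00589). With the exact test of edgeR and an assumed coefficient of variation of 0.2 among animals, it was not called.

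MiR-450a-5p fell from 199 reads in WI to 101 in IR. Its level fell from 40.9 to 26.4 CPM, a ratio of 0.646 (0.503 to 0.824, Fisher's exact p = 0.000299, Benjamini-Hochberg adjusted p = 0.00211). This is 1.55-fold lower and close to the threshold. It was no longer called with plain library totals as the scaling, or at an assumed coefficient of variation of 0.1.

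The abundant members stayed below the fold threshold. MiR-351-5p was at 457 CPM in WI and 556 in IR, a ratio of 1.22 (1.14 to 1.29) that exceeded counting error (Fisher's exact p = 1.36e-10). The log2 ratio was 0.28, and it became -0.04 with totals of genome-aligned reads, a scaling that moved the median of all microRNAs from -0.04 to -0.36. Relative to that median it was 0.32 with either scaling. This is so by construction, because a change of totals shifts every log2 ratio by the same amount. MiR-322-5p had a ratio of 1.11 (1.003 to 1.23) and miR-322-3p of 1.13 (0.989 to 1.30), and both ratios were below 1 with genome-aligned totals. The intervals of these 3 lay within 1.5-fold, as did those of 65.8% of 243 microRNAs with 100 reads or more.

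MiR-542-3p had 107 reads in WI and 69 in IR, a ratio of 0.820 (0.597 to 1.12), and it was called lower only with genome-aligned totals. The called pair were also the only ones of 6 members with 30 reads or more past 1.5-fold by the ratio alone, where 26.4% of 330 microRNAs were. The median log2 ratio of the 6 was 0.17, against -0.04 for all 330.

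Over the whole course (IR versus Sham), none of the 9 members tested was called, against 7.11% of all microRNAs (55 of 774), 5.68% higher and 1.42% lower. MiR-351-5p was at 424 CPM in Sham and 556 in IR, and the intervals of these levels did not overlap. Its ratio was 1.31 (1.23 to 1.40, Fisher's exact p = 7.99e-17, Benjamini-Hochberg adjusted p = 1.34e-15), above counting error and below the fold threshold. The log2 ratio was 0.39, and 0.22 with genome-aligned totals. MiR-322-5p was at 169 and 186 CPM, a ratio of 1.10 (0.989 to 1.22), and miR-322-3p at 102 and 105 CPM, a ratio of 1.03 (0.893 to 1.18). MiR-542-3p, at 18.2 and 18.0 CPM, had a ratio of 0.992 (0.703 to 1.40). These 4 members had intervals within 1.5-fold, as did 63.3% of 237 microRNAs with 100 reads or more.

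MiR-450a-5p was at 35.4 CPM in Sham and 26.4 in IR, a ratio of 0.747 (0.573 to 0.972) that did not pass the p threshold (Fisher's exact p = 0.0283). With genome-aligned totals it was called lower. MiR-503-3p was at 3.79 and 7.06 CPM, a ratio of 1.86 (0.957 to 3.77). It alone of the 6 members with 30 reads or more was past 1.5-fold by the ratio, where 19.8% of 318 microRNAs were. The median log2 ratio of the 6 was 0.09, against 0.01 for all 318.

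The summed level of the cluster was 756, 786 and 902 CPM, and without miR-351-5p it was 332, 329 and 346. From Sham to IR the ratio of the sum was 1.19 (1.14 to 1.25), and without miR-351-5p it was 1.04 (0.967 to 1.13). From WI to IR these ratios were 1.15 (1.10 to 1.20) and 1.05 (0.979 to 1.13), and with genome-aligned totals the log2 ratio of the whole sum turned from 0.20 to -0.12.

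**Figure D2:**
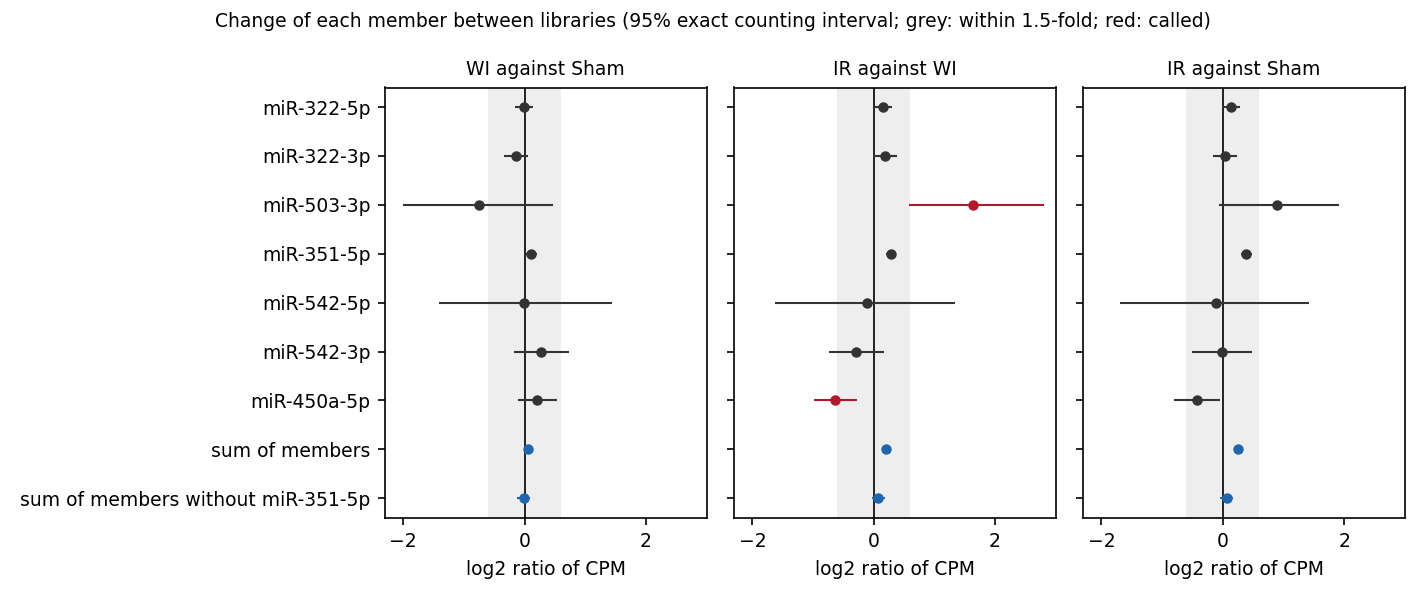
Log2 ratios of CPM for 7 members and for the summed members, with and without miR-351-5p, in the 3 comparisons, with 95% exact counting intervals. Grey marks ratios within 1.5-fold, and the 2 called members, miR-503-3p (higher) and miR-450a-5p (lower in IR versus WI), are in red, while miR-322-5p and miR-351-5p stay inside the grey band throughout.

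Between these libraries, some members changed in proportion to each other by more than counting error. This was examined by the odds ratio of the reads of 2 members in 2 libraries, in which the scaling cancels. Among the 5 members with 100 reads or more there are 10 pairs. The exact interval left out 1 for 1 pair in WI versus Sham, for 4 in IR versus WI and for 5 in IR versus Sham. The 30 intervals were not corrected for their number, and pairs with a member in common share its reads. The same share was not computed for pairs of other microRNAs, so these counts cannot be called particular to the cluster.

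MiR-450a-5p stood apart from miR-351-5p and both arms of miR-322 in IR. From WI to IR the reads of miR-351-5p relative to miR-450a-5p changed by a factor of 1.88 (1.46 to 2.43), those of miR-322-5p by 1.72 (1.32 to 2.25) and those of miR-322-3p by 1.76 (1.32 to 2.34). These factors all use the same miR-450a-5p reads, so they restate its fall given above and are not separate results. For miR-450a-5p relative to miR-542-3p, the hairpin next to it, the factor was 0.787 (0.526 to 1.18), and a difference was not detectable at this depth. The remaining pair whose interval left out 1 was miR-351-5p relative to miR-542-3p, with a factor of 1.48 (1.08 to 2.05). For miR-322-3p relative to miR-322-5p, the arms of 1 hairpin, the factor was 1.02 (0.860 to 1.21). MiR-351-5p relative to miR-322-5p was higher in IR than in Sham by a factor of 1.19 (1.05 to 1.35), while from WI to IR the factor was 1.09 (0.973 to 1.23).

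MiR-450b, the last hairpin of the locus and outside the name rule, gave 60, 90 and 78 reads of miR-450b-5p, or 15.2, 18.5 and 20.4 CPM. Its ratio from WI to IR was 1.10 (0.804 to 1.51), where miR-450a-5p had 0.646 (0.503 to 0.824), and these intervals overlapped by little. MiR-450b-5p was not called in any comparison, and miR-450b-3p had 1, 2 and 1 reads.

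The seeds printed above place 2 of the abundant members in larger groups. Sequences were found for 1605 of the 1908 listed microRNAs, and the others could not be placed. Of the 11 members, 7 had a seed that no other listed microRNA carried. MiR-322-5p shared its seed with miR-16-5p, which had 10598, 9708 and 10898 CPM, and with miR-15a-5p, miR-195a-5p, miR-15b-5p and miR-497-5p. The shares of miR-322-5p in the reads of this group of 10 microRNAs were 1.43%, 1.53% and 1.54%, with Wilson intervals that all overlapped, between 1.33 and 1.66. MiR-16-5p held 88.5% to 90.0% of the group. The proportion of miR-322-5p to the rest of the group differed by less than counting error, with a factor of 1.07 (0.963 to 1.19) from Sham to WI, 1.01 (0.908 to 1.11) from WI to IR and 1.07 (0.965 to 1.20) from Sham to IR.

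MiR-351-5p took a larger share of its seed group in IR. The share was 6.88% for Sham (95% Wilson interval 6.57 to 7.20), 7.47% for WI (7.18 to 7.78) and 11.7% for IR (11.2 to 12.2). The interval for IR lay apart from the others, whereas those for Sham and WI overlapped by little. The proportion of miR-351-5p to the rest of the group changed by a factor of 1.09 (1.02 to 1.17) from Sham to WI, 1.64 (1.54 to 1.74) from WI to IR and 1.79 (1.67 to 1.91) from Sham to IR, whatever the scaling, and all 3 exact intervals left out 1.

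The other microRNAs of this group with reads were miR-125a-5p, known to restrain inflammatory responses of macrophages, and miR-125b-5p. MiR-125a-5p was at 4333, 4435 and 2957 CPM. Its ratio from WI to IR was 0.667 (0.652 to 0.682), which fell just short of the fold threshold, so it was not called. MiR-125b-5p was at 1406, 1229 and 1248 CPM. From WI to IR, miR-351-5p changed by a factor of 1.82 (1.71 to 1.94) relative to miR-125a-5p and of 1.20 (1.11 to 1.28) relative to miR-125b-5p. From Sham to WI these factors were 1.05 (0.986 to 1.13) and 1.23 (1.15 to 1.33), and the interval of the second overlapped that from WI to IR. The whole group had 6163, 6121 and 4762 CPM, so it was lowest in IR.

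**Figure D3:**
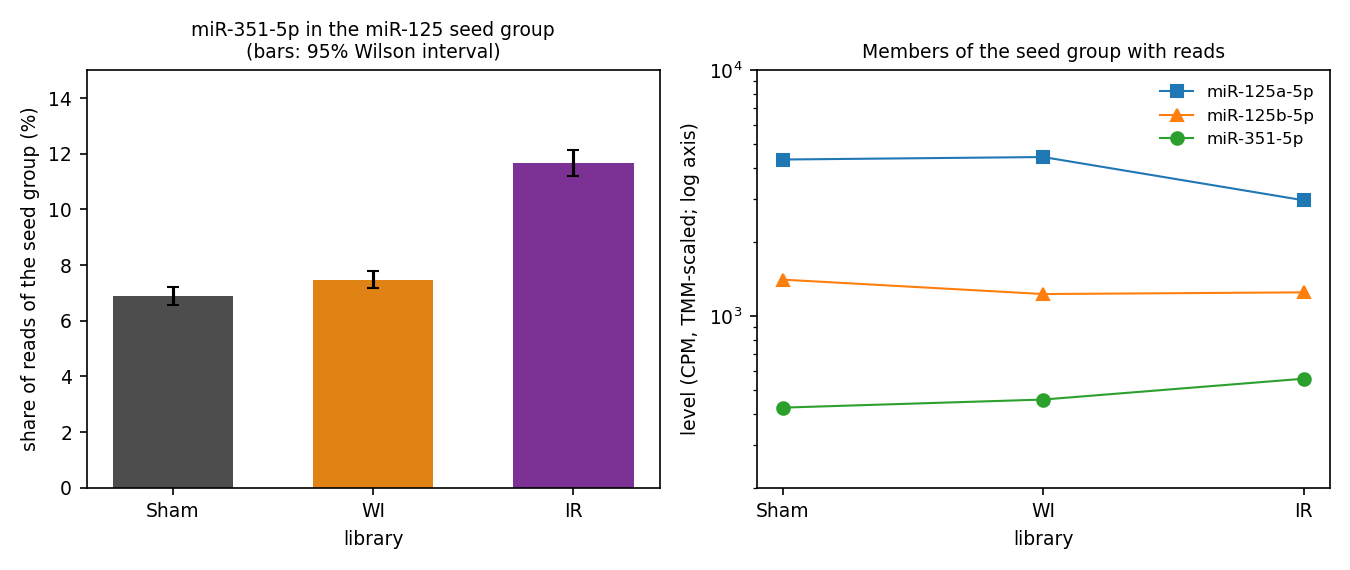
Left, share (%) of the reads of the miR-125 seed group held by miR-351-5p in the Sham, WI and IR libraries, with 95% Wilson intervals, and right, the levels (CPM, log axis) of the 3 microRNAs of the group that had reads. The share is 6.88%, 7.47% and 11.7%, and in IR miR-125a-5p lies lower and miR-351-5p higher than in the other libraries, though with genome-aligned totals the log2 ratio of miR-351-5p in IR versus WI is -0.04.

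Other microRNAs linked to hypoxia or cell-cycle arrest were examined as a list of 13, all detected. In WI versus Sham 0 of 13 were called, in IR versus WI 1 was called lower, and in IR versus Sham 1 was called higher. Over all microRNAs the shares called in either direction were 1.92%, 9.25% and 7.11%, so 1 of 13 is near the background. MiR-210-3p, the best known microRNA target of hypoxia-inducible factors, had 135, 198 and 165 reads, or 34.1, 40.7 and 43.1 CPM, and was not called. MiR-34a-5p, a p53-induced microRNA, fell from 44.0 CPM in WI to 29.3 in IR, and its relative miR-34c-5p rose from 5.05 CPM in Sham to 11.2 in IR. Over the 12 list members with more than 3 reads in either library, the median log2 ratio was 0.14 in WI versus Sham, -0.02 in IR versus WI and -0.02 in IR versus Sham, against 0.05, -0.04 and 0.01 for all microRNAs with 30 reads or more.

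Likeness to the pattern of the summed cluster over the libraries was measured as the Euclidean distance between log2 levels centred over the 3 libraries. Among 274 non-members with 100 reads or more, the nearest were miR-17-3p (distance 0.015), miR-1198-5p (0.020), miR-320-3p (0.034), miR-22-5p (0.041) and miR-345-5p (0.048). In all, 18 had a distance under 0.1, and the median distance was 0.34. With 3 libraries the measure describes these libraries only. The distances take no account of counting error, and the nearest, miR-17-3p, had only 44, 56 and 50 reads. MiR-351-5p held 56.1% to 61.6% of the summed reads.

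**Figure D4:**
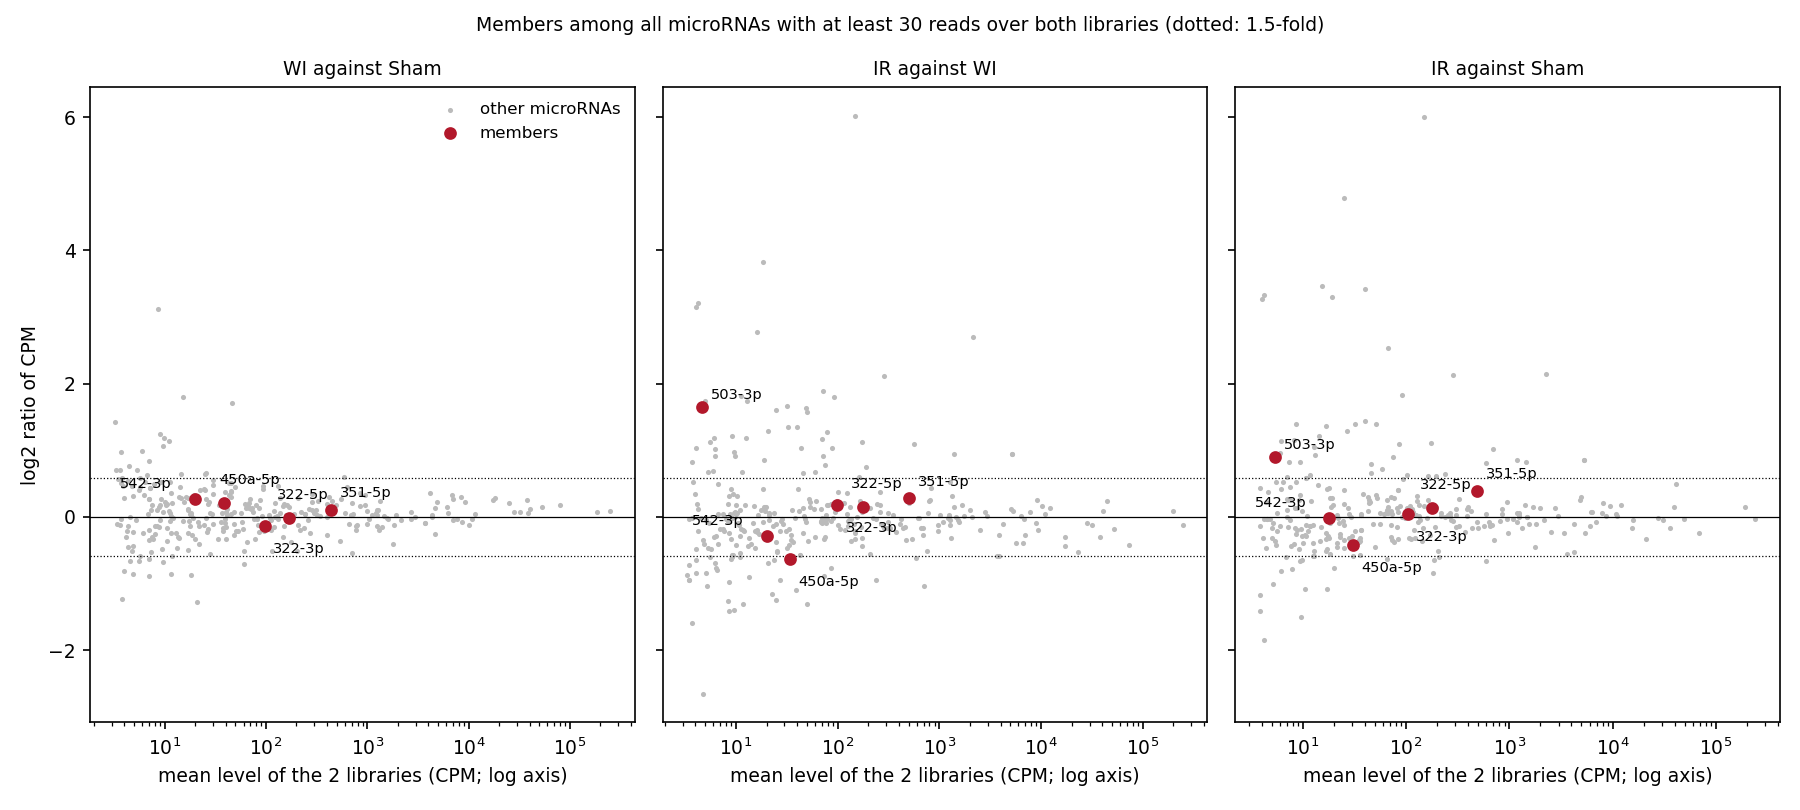
Log2 ratio of CPM against mean level (CPM, log axis) for every microRNA with at least 30 reads over both libraries, in the 3 comparisons, with members in red and dotted lines at 1.5-fold. The members lie within the cloud of other microRNAs, and past the dotted lines are miR-503-3p in both comparisons with IR and miR-450a-5p in IR versus WI.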

How the data were processed

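The authors deposited raw counts of reads for each mature microRNA, 1 library per group. Per the methods, reads were trimmed, selected by length, aligned with Bowtie 0.12.7 (to mm9 in the methods, while the submitters' processing notes name mm10), sorted by RNA class with HTSeq and counted with miRDeep2. PCR copies count as reads, and levels of different microRNAs can differ through adaptor ligation. Each read is a whole microRNA, so no length correction was needed.

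Groups follow the sample titles. CPM used TMM scaling (edgeR 4.0.16, R 4.3.3), with factors of 1.03 for Sham, 0.961 for WI and 1.01 for IR. MicroRNAs read at least once in the pair of libraries compared entered Fisher's exact test (two-sided, scipy 1.17.1) on its reads and the scaled totals. Calls needed a fold above 1.5 and p under 0.01, and Benjamini-Hochberg values cover all microRNAs tested. Ratios have no pseudocount and carry conditional Clopper-Pearson intervals. For calls and medians, a count of 0 against more than 3 reads was set to 3 reads. Members and list microRNAs with both counts at or under 3 reads got no ratio. Since no group has replicates, the quasi-likelihood test of edgeR was not run. The calling was tested on simulated data with counting error only and with changes well above the fold threshold. That simulation held no variation between animals, so it cannot show how calls near the threshold behave between conditions. Hairpins are from GENCODE M1 (NCBIM37), and older names (miR-497, miR-126, miR-145) were matched through RefSeq synonyms.

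The text names all members, both miR-450b arms, the leading seed relatives, the 5 microRNAs nearest in pattern and, outside that rule, list members chosen after their values were seen. The members and lists were chosen with earlier results of these data known.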

Additional observations from a re-analysis of the deposited data

How the results depend on the processing

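With 1 library per group, only counting error is known, and leaving out a replicate was not possible. No paired analysis was possible because each group has 1 library. Members under 30 reads (5 of 11) cannot show a difference of 1.5-fold at this depth. Of the 13 alternatives, those other than the exact tests of edgeR gave 209 log2 ratios. Of these ratios, 14 left the counting interval of the reported value. Many could not leave it, because the adjusted p, the fold threshold of 2 and the minimum of 30 reads do not change a ratio. With genome-aligned totals, 10 ratios left the interval and 11 did not. With library totals 3 left it, and with totals without the 10 most abundant microRNAs 1 did. All 13 alternatives together gave 39 counts of called members, of which 6 moved by more than 1.5 times. With genome-aligned totals, the log2 ratios in WI versus Sham were 0.14 for miR-322-5p, 0.27 for miR-351-5p and 0.21 for the sum. In IR versus WI they were -0.14 for miR-322-3p, -0.17 for miR-322-5p, -0.043 for miR-351-5p and -0.12 for the sum, and in IR versus Sham -0.030 for miR-322-5p, 0.22 for miR-351-5p and 0.088 for the sum. This scaling moved the median of all microRNAs to 0.21, -0.36 and -0.16 in these comparisons. It called 1 member, miR-450a-5p, in IR versus Sham and 3 in IR versus WI, where miR-542-3p joined the reported 2. With library totals, miR-351-5p in WI versus Sham was 0.0086, and the sum was -0.044 in WI versus Sham and 0.27 in IR versus WI. With totals that left out the 10 most abundant microRNAs, the sum was -0.026 in WI versus Sham. In IR versus WI, the members called fell from 2 to 1 with library totals, to 1 at a fold threshold of 2, and to 1, 0 and 0 with the exact test of edgeR at an assumed coefficient of variation of 0.1, 0.2 and 0.4. Over all microRNAs, the 15, 73 and 55 calls (WI versus Sham, IR versus WI, IR versus Sham) became 25, 111 and 63 with genome-aligned totals, 9, 49 and 35 at a fold of 2, and 4, 33 and 24 or 1, 6 and 10 at a coefficient of variation of 0.2 or 0.4. An adjusted p under 0.05, DESeq2 size factors, pseudocounts, a minimum of 30 reads and thinning to the smallest library changed no member's call. The cause of each shift was not tested.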

Other observations

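Summed over both arms, the miR-503 hairpin gave 16, 13 and 29 reads in Sham, WI and IR, next to 1076, 1268 and 1115 of the miR-322 hairpin 295 bases upstream. There were 67.3, 97.5 and 38.4 reads of miR-322 for each read of miR-503. Relative to miR-322, miR-503 reads changed by a factor of 2.54 (95% exact interval 1.27 to 5.34) from WI to IR, and miR-450a reads by 0.574 (0.442 to 0.744). For miR-503 the factor was 0.690 (0.304 to 1.54) from Sham to WI and 1.75 (0.913 to 3.47) from Sham to IR, and both intervals held 1. For miR-450a it was 1.21 (0.957 to 1.54) and 0.696 (0.526 to 0.919). From WI to IR the factor was 0.977 (0.706 to 1.35) for miR-450b, beside miR-450a, and 0.742 (0.543 to 1.01) for miR-542. Both intervals overlapped that of miR-450a. Only 13 miR-503 reads stand behind the WI value.

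When seeds were cut to bases 2 to 7, miR-322-5p and miR-503-5p fell in 1 group, of which they held 1.44%, 1.53% and 1.54% of the reads.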
